A study of Homo sapiens with 9 samples.

Results

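The TNF ligand and receptor superfamily was followed through knockdown of DNMT1 or DNMT3B in cells labelled HT29, a human colorectal adenocarcinoma line. Its members here were all symbols of the raw count table that begin with TNFSF (ligands) or TNFRSF (receptors) followed by a number and at most 1 letter, which gave 32 of 25886 genes, 21 receptors and 11 ligands. The 3 groups were cells with stable lentiviral DNMT1 knockdown, cells with stable lentiviral DNMT3B knockdown, and Control cells. All 3 groups had been under puromycin, so the selection is shared by Control. Each group had 3 libraries of rRNA-depleted total RNA. The study asked what happens to the transcriptome when either enzyme is depleted, starting from a fall of both under proteasome inhibitors. DNMT1 copies methylation of CG dinucleotides onto newly replicated DNA, and DNMT3B can methylate unmarked DNA. Methylation itself was not measured in these libraries. Whether the 3 libraries of a group stem from separate cultures is not stated in the labels, so the p-values cover the spread among libraries, which may be technical. The column headers of the counts read shCTR for Control, beside shDNMT1 and shDNMT3B for the knockdowns. What sequence the Control construct held is not stated.

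Ligands of the superfamily assemble into trimers on the cell surface or in soluble form and cluster their receptors. Receptors with a cytoplasmic death domain can recruit adaptors and caspases and start apoptosis, whereas the other signalling receptors bind TRAF proteins and activate NF-kB and kinase pathways. Decoy receptors bind ligand but lack a working death domain, so they compete with the death receptors. Many ligands and costimulatory receptors are known from leukocytes, while the death receptors for TRAIL and TNF are widely expressed in epithelial cells.

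Libraries held 23.4 to 24.2 M counts (M, 1e+06) in DNMT1 knockdown, 18.8 to 26.0 M in DNMT3B knockdown and 26.9 to 33.7 M in Control, and the members took 0.0767 to 0.0818% of them. Levels are given as counts per 1e+06 counts (CPM) of the TMM-scaled library, with SD over 3 libraries. Standard errors follow each log2 fold change after ±. A gene was called at an adjusted p under 0.05 in edgeR's quasi-likelihood test over 16660 genes. DNMT1 averaged 252 ± 4.68 CPM in DNMT1 knockdown, 488 ± 1.95 CPM in DNMT3B knockdown and 458 ± 10.3 CPM in Control, a log2 fold change of -0.86 ± 0.03 in DNMT1 knockdown (adjusted p = 2.8e-20). In DNMT3B knockdown DNMT1 was called higher by 0.09 log2 (adjusted p = 0.017), a call that ended without Control replicate 1 (adjusted p = 0.0852). DNMT3B averaged 64.2 ± 0.32 CPM in DNMT1 knockdown, 30.5 ± 2.45 CPM in DNMT3B knockdown and 61.3 ± 1.17 CPM in Control, a log2 fold change of -1.0 ± 0.05 in DNMT3B knockdown (adjusted p = 1.5e-17). It was not called in DNMT1 knockdown (0.07 log2, adjusted p = 0.22). Of 10 colorectal epithelial markers, 7 were measurable, and their summed level was 2003 to 2090 CPM in DNMT1 knockdown, 2037 to 2229 CPM in DNMT3B knockdown and 1921 to 1995 CPM in Control libraries. Against the label, CDX1 had 1 count, CEACAM5 had 2 counts and LGALS4 had 55 counts over all 9 libraries, and VIL1 (0.894 to 0.905 CPM) and KRT20 (1.03 to 2.02 CPM) had low group means, while EPCAM, CDH1, KRT8, KRT18 and CDX2 were all well above the filter; whether the libraries match the labelled line was not tested. PTPRC, the pan-leukocyte marker, lay at 0.0413 to 0.0852 CPM in DNMT1 knockdown, 0.0766 to 0.205 CPM in DNMT3B knockdown and 0.0642 to 0.149 CPM in Control. The 6 stroma markers, of which 1 was measurable and COL1A2 and DCN had no count, summed to 19.6 to 24.1 CPM in DNMT1 knockdown, 27.2 to 28.4 CPM in DNMT3B knockdown and 16.3 to 20.2 CPM in Control. The measurable stroma marker was called higher in both knockdowns, by 0.30 log2 in DNMT1 knockdown and 0.65 log2 in DNMT3B knockdown. The part of other cell types in the values below was not tested.

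Of the 32 members, 22 passed the low-count filter (16 receptors and 6 ligands), which asks for about 0.412 CPM in at least 3 libraries. In DNMT1 knockdown, 13 of these 22 were called against Control, 6 higher and 7 lower, beside 41.8% of all tested genes called in that comparison (21% higher and 20.8% lower). In DNMT3B knockdown, 10 were called, 6 higher and 4 lower, beside 47.7% of all tested genes (23.1% higher and 24.6% lower). Between the knockdowns, 11 were called, 5 higher and 6 lower in DNMT1 knockdown than in DNMT3B knockdown, beside 45.2% of all tested genes. The members' shares were 59.1%, 45.5% and 50% in these 3 comparisons, and with 22 genes nothing particular to the superfamily is read from them. The members' median log2 fold change was 0.05 in DNMT1 knockdown and 0.01 in DNMT3B knockdown, where all tested genes had -0.00 and 0.00. The CPM of the 3 libraries did not overlap Control for 14 of the 22 members in DNMT1 knockdown (49.4% of all tested genes) and for 10 in DNMT3B knockdown (54.1%), and the knockdowns did not overlap each other for 11 (52.2%). Of the 22 members, 5 were called with an absolute log2 fold change of at least 0.5 in DNMT1 knockdown (7.27% of all tested genes). In DNMT3B knockdown 6 were (9.9% of all tested genes), and between the knockdowns 1, TNFSF18 (9.05% of all tested genes).

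The filter bears on these counts, both by direction and by size of change. TNFSF4, TNFSF18 and TNFRSF1B reached the filter level in knockdown libraries and in no Control library, and TNFRSF17 and TNFRSF8 reached it in 1 Control library, so genes of this kind could enter the test by being higher in a knockdown. TNFSF13B reached it in 2 libraries of each knockdown and 3 of Control. Among the other 16 members, which lay above that level in all 9 libraries, 2 were higher and 7 were lower in DNMT1 knockdown, and 2 were higher and 4 were lower in DNMT3B knockdown. The shares over all genes that meet the same condition were not computed, so no direction of the superfamily is read from this split. TNFSF4, TNFSF18 and TNFRSF1B were also among the called members past 0.5 log2 in both knockdowns. So were TNFRSF17 in DNMT1 knockdown and TNFRSF8 in DNMT3B knockdown. No excess of large changes in the superfamily is therefore read from those counts. In this cell population a lower level of a transcript per cell and fewer cells that hold it cannot be told apart.

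**Figure D1:**
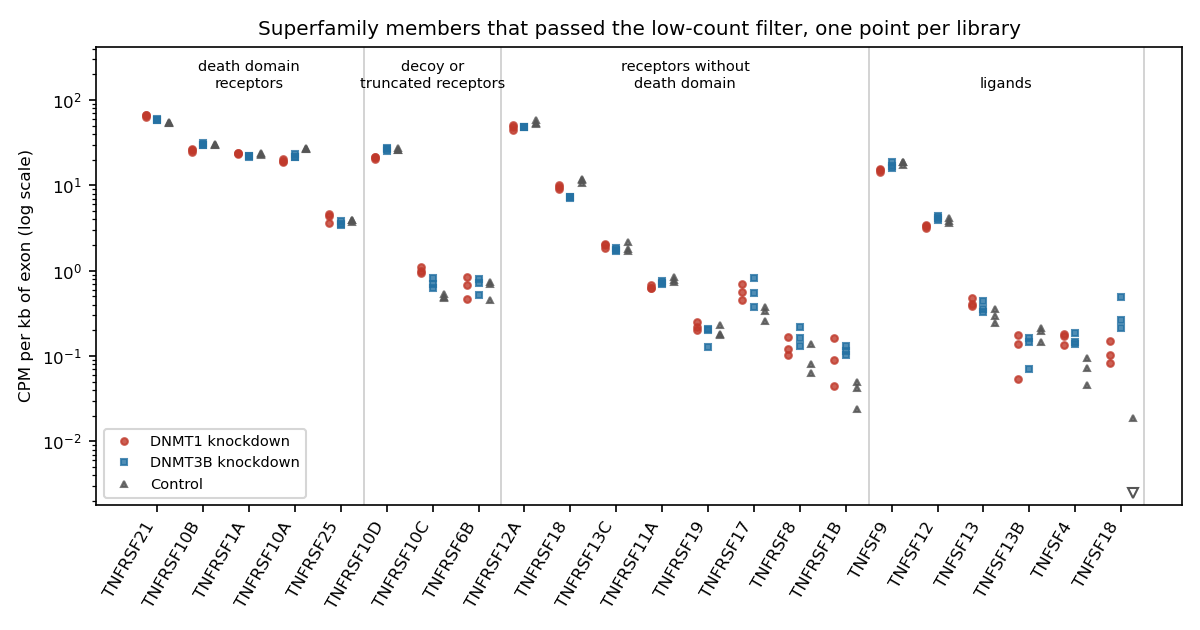
Level of each member that passed the filter, as CPM per kb of exon on a log scale, with 1 point per library; DNMT1 knockdown, DNMT3B knockdown and Control stand left to right within each gene, and the open triangle marks the 2 Control libraries in which TNFSF18 had no count. TNFRSF12A, TNFRSF21, TNFRSF10B, TNFRSF10A, TNFRSF10D and TNFRSF1A sit highest, and the groups separate most widely at TNFSF18.

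Per length, the highest members in Control cells were TNFRSF12A (55.0 ± 3.18 CPM per kb of exon) and TNFRSF21 (54.7 ± 1.05), which did not differ beyond their spread, as the plot of levels per kb of exon shows. TNFRSF10B (29.9 ± 0.43 CPM per kb), TNFRSF10A (27.2 ± 0.52), TNFRSF10D (26.4 ± 0.70) and TNFRSF1A (23.4 ± 0.39) followed, and TNFRSF10A and TNFRSF10D overlapped within their SD. The most abundant ligand was TNFSF9 at 18.3 ± 0.80 CPM per kb, followed by TNFSF12 at 3.86 ± 0.29. TNFRSF18 stood between them at 11.3 ± 0.69 CPM per kb. The remaining 13 tested members ranged in Control from 3.88 CPM per kb for TNFRSF25 down to 0.00618 CPM per kb for TNFSF18.

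Both knockdowns were set against the same 3 Control libraries, so their calls are not independent of each other. TNFRSF10A, TNFRSF12A and TNFRSF18 were lower in both knockdowns, and TNFRSF10C, TNFRSF21, TNFRSF1B, TNFSF4 and TNFSF18 were higher in both. The members called in 1 knockdown were TNFRSF10B, TNFRSF10D, TNFRSF11A and TNFSF9 (lower in DNMT1 knockdown), TNFRSF17 (higher in DNMT1 knockdown), TNFRSF1A (lower in DNMT3B knockdown) and TNFRSF8 (higher in DNMT3B knockdown). TNFRSF6B, TNFRSF13C, TNFRSF19, TNFRSF25, TNFSF12, TNFSF13 and TNFSF13B were called in neither.

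**Figure D2:**
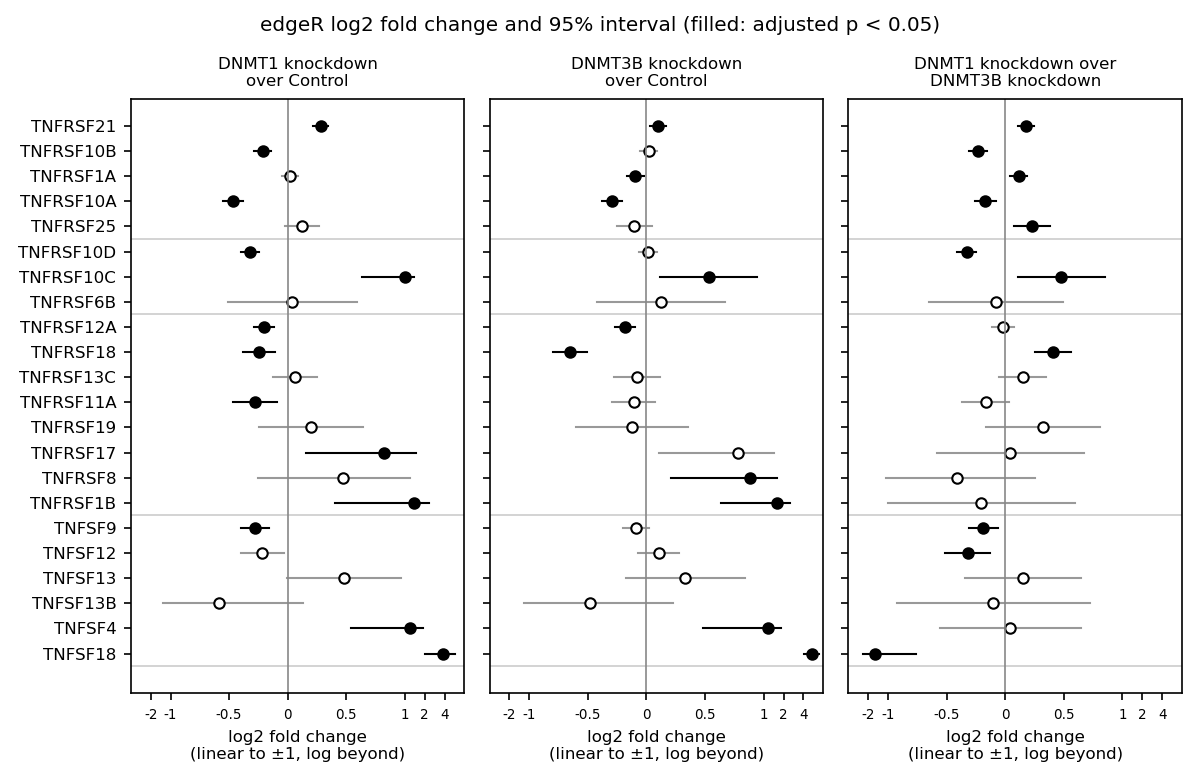
Log2 fold change (point) and 95% interval (line) of the 22 tested members in the 3 comparisons, grouped by role and ordered by level in Control; filled points passed an adjusted p of 0.05 in edgeR, and the horizontal axis is linear between -1 and 1 and logarithmic beyond. Intervals are narrow for the abundant receptors at the top of each group and wide for members near the filter. They were built from standard errors derived from the test's F statistic.

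The members called in both knockdowns with an absolute log2 fold change of at least 0.5 in at least 1 of them were TNFSF18, TNFSF4, TNFRSF18, TNFRSF1B and TNFRSF10C. Because the targeted enzymes methylate CG dinucleotides, the 250 bases before the RefSeq start (GRCh38.p14) are shown for the 4 of these on chromosome 1, from 5′ to 3′ on the gene's own strand, with each CG in capitals. TNFSF18 is given from chr1:173050942-173051191 and TNFSF4 from chr1:173205533-173205782, both on the minus strand. TNFRSF18 is given from chr1:1206593-1206842 on the minus strand, and TNFRSF1B from chr1:12166741-12166990 on the plus strand. In GENCODE the TNFSF4 gene runs to position 173207313, so its whole window lies inside that gene. The windows of TNFRSF18 and TNFSF18 lie partly inside their GENCODE genes. For TNFRSF1B the first bases after the RefSeq start were not found in a GENCODE transcript. Which start these cells use was not tested.
TNFSF18: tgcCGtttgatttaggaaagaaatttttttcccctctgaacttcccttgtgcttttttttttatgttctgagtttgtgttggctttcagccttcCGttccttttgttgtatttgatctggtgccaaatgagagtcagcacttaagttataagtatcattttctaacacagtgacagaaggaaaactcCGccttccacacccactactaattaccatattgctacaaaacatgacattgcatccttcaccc
TNFSF4: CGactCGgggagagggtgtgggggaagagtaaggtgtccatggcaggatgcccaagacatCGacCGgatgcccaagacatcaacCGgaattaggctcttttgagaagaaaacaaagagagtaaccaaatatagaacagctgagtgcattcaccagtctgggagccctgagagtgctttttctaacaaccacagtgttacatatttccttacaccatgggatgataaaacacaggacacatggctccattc
TNFRSF18: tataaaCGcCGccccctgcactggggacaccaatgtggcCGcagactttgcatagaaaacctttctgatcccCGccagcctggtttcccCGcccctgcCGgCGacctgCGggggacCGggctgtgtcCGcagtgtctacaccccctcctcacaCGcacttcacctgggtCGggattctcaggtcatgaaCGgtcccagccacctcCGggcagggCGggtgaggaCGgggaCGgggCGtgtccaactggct
TNFRSF1B: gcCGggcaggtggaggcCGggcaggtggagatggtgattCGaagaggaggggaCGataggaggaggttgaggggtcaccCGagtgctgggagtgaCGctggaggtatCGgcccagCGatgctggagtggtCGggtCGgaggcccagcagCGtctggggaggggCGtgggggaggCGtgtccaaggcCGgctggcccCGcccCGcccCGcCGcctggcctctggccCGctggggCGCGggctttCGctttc
The windows of the 2 ligands hold 3 CG (TNFSF18) and 5 CG (TNFSF4), and those of the 2 receptors hold 18 CG (TNFRSF18) and 22 CG (TNFRSF1B). Over 35116 RefSeq promoter windows of the same length the median was 11 CG, with quartiles of 3 and 23. The share of those windows with fewer CG was 22.9% for TNFSF18, 34.3% for TNFSF4, 63.2% for TNFRSF18 and 72.0% for TNFRSF1B. The motif TATAAA, searched on both strands, occurs in the TNFRSF18 window, as it does in 10.7% of all windows, and in none of the other 3 windows. These are letters of the reference; the methylation state of these windows is not analysed here.

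The death domain receptors, all 5 of which passed the filter, were lower in DNMT1 knockdown at both TRAIL receptors and higher at TNFRSF21. TNFRSF10A (DR4, a receptor for TRAIL that signals apoptosis) had 60.6, 56.1 and 57.3 CPM in DNMT1 knockdown, 63.0, 69.8 and 63.6 CPM in DNMT3B knockdown, and 81.9, 79.7 and 78.9 CPM in Control. All 6 knockdown libraries lay below all Control libraries. TNFRSF10A fell by 0.47 ± 0.04 on the log2 scale in DNMT1 knockdown (adjusted p = 1.2e-10) and by 0.30 ± 0.04 in DNMT3B knockdown (adjusted p = 5.6e-07). The level in DNMT1 knockdown was also below that in DNMT3B knockdown, with a log2 fold change of -0.17 ± 0.04 (adjusted p = 0.0020). TNFRSF10A-DT, a gene on the opposite strand that shares exon sequence with TNFRSF10A, was not called in either knockdown, and without known strand use in counting the reads of this pair cannot be told apart.

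TNFRSF10B (DR5, the other apoptosis-signalling TRAIL receptor) had 138, 134 and 128 CPM in DNMT1 knockdown, 156, 163 and 152 CPM in DNMT3B knockdown, and 156, 152 and 155 CPM in Control. The DNMT1 knockdown libraries were the lowest, while those of DNMT3B knockdown overlapped Control. TNFRSF10B fell by 0.21 ± 0.04 on the log2 scale in DNMT1 knockdown (adjusted p = 1.3e-05), against a log2 fold change of 0.02 ± 0.04 in DNMT3B knockdown (adjusted p = 0.68). The difference between the knockdowns was itself called at -0.23 ± 0.04 (adjusted p = 3.3e-06). TNFRSF10B shares exon sequence with RHOBTB2 on the opposite strand, so its value carries the same uncertainty.

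TNFRSF21 (DR6), the most abundant member in CPM, had 231, 242 and 243 CPM in DNMT1 knockdown, 214, 212 and 208 CPM in DNMT3B knockdown, and 195, 194 and 201 CPM in Control. The 3 groups did not overlap. TNFRSF21 rose by 0.28 ± 0.03 on the log2 scale in DNMT1 knockdown (adjusted p = 3.2e-08) and by 0.10 ± 0.03 in DNMT3B knockdown (adjusted p = 0.012), and the knockdowns differed by 0.18 ± 0.03 (adjusted p = 4.9e-05). TNFRSF1A, the main TNF receptor of non-immune cells, averaged 95.1 ± 1.07 CPM in DNMT1 knockdown, 87.8 ± 0.78 CPM in DNMT3B knockdown and 93.7 ± 1.56 CPM in Control. TNFRSF1A was higher in DNMT1 knockdown than in DNMT3B knockdown by 0.11 ± 0.04 log2 (adjusted p = 0.0095). Its fall in DNMT3B knockdown was -0.09 ± 0.04 log2 (adjusted p = 0.028), and this call ended when Control replicate 1 or 3 or DNMT3B knockdown replicate 2 or 3 was left out (adjusted p = 0.0524 to 0.0996) and in DESeq2 (adjusted p = 0.0607). TNFRSF25 (DR3), which overlaps exons of ESPN and PLEKHG5, averaged 18.1 ± 2.17 CPM in DNMT1 knockdown, 15.4 ± 0.91 CPM in DNMT3B knockdown and 16.6 ± 0.62 CPM in Control. Its one call was between the knockdowns, at 0.23 ± 0.08 log2 with overlapping libraries (adjusted p = 0.014), and it ended without DNMT1 knockdown replicate 2 (0.14 log2, adjusted p = 0.163), DNMT1 knockdown replicate 3 or DNMT3B knockdown replicate 3.

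**Figure D3:**
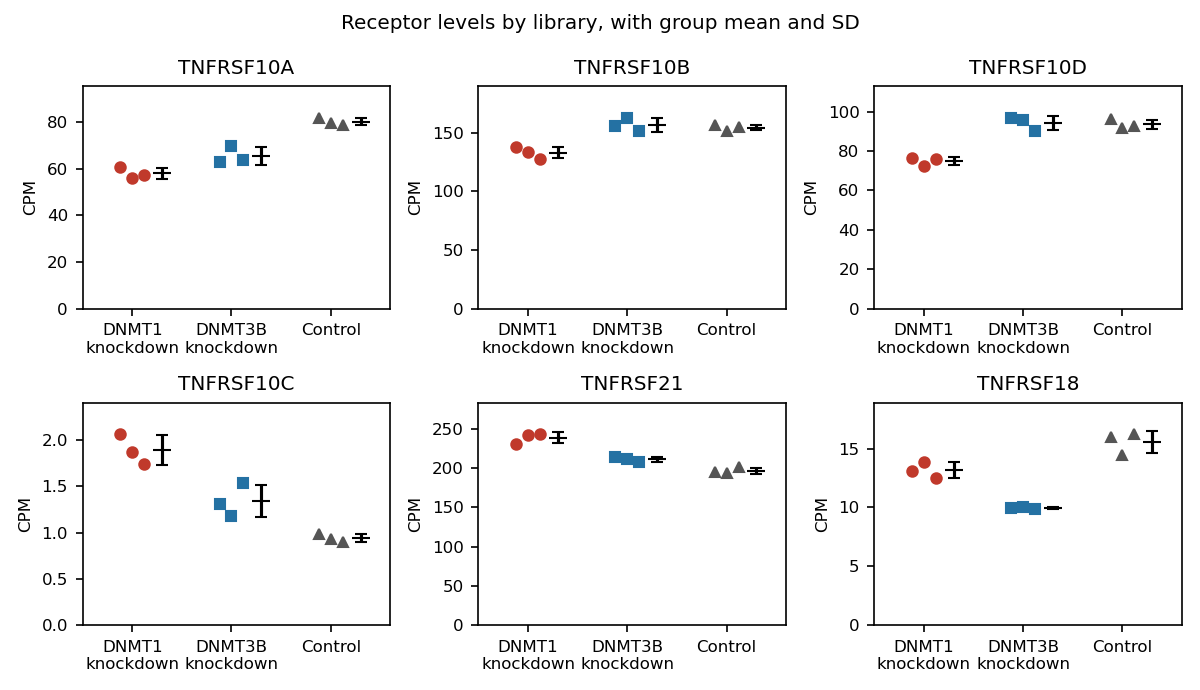
CPM of 6 receptors in each library, with the mean and SD of the 3 libraries of a group beside the points; DNMT1 knockdown stands left, DNMT3B knockdown in the middle and Control right, and each vertical axis starts at 0. TNFRSF10A is below Control in both knockdowns, TNFRSF10B and TNFRSF10D in DNMT1 knockdown alone, TNFRSF10C and TNFRSF21 are above Control in both, and TNFRSF18 is lowest in DNMT3B knockdown.

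The decoy or truncated receptors did not follow one direction, although 2 of them lie between the TRAIL death receptors in a cluster of 205 kb on chromosome 8. TNFRSF10D (DcR2, a TRAIL receptor with a truncated death domain) had 76.3, 72.5 and 75.8 CPM in DNMT1 knockdown, 96.8, 95.5 and 90.3 CPM in DNMT3B knockdown, and 96.2, 91.5 and 92.6 CPM in Control. The DNMT1 knockdown libraries lay below all others, as they did for TNFRSF10B. TNFRSF10D fell by 0.32 ± 0.04 on the log2 scale in DNMT1 knockdown (adjusted p = 4.6e-08), against 0.01 ± 0.04 in DNMT3B knockdown (adjusted p = 0.85), and the knockdowns differed by -0.33 ± 0.04 (adjusted p = 2.9e-08). TNFRSF10C (DcR1, a TRAIL receptor anchored to the membrane without a death domain) went the other way, at a much lower level. It had 2.06, 1.88 and 1.75 CPM in DNMT1 knockdown, 1.31, 1.18 and 1.53 CPM in DNMT3B knockdown, and 0.984, 0.931 and 0.899 CPM in Control. The 3 groups did not overlap. TNFRSF10C rose by 1.01 ± 0.19 on the log2 scale in DNMT1 knockdown, a 2.01-fold change (adjusted p = 4.8e-05), and by 0.53 ± 0.20 in DNMT3B knockdown (adjusted p = 0.031). The call in DNMT3B knockdown ended without Control replicate 2 or 3 or DNMT3B knockdown replicate 1 or 3 (adjusted p = 0.0560 to 0.177) and in DESeq2 (0.116). The difference between the knockdowns, 0.48 ± 0.18 log2 (adjusted p = 0.032), ended without replicate 1 or 2 of either knockdown (0.0618 to 0.119) and in DESeq2 (0.136). The TRAIL receptor genes are related in sequence, and how reads that fit more than 1 of them were counted was not given in the sources used here. In GENCODE, TNFRSF10C also shares exon sequence on its own strand with a protein-coding gene and a noncoding RNA gene that lack symbols. How reads of that overlap were counted is not known either. TNFRSF6B (DcR3, a soluble decoy for FAS ligand), which overlaps RTEL1-TNFRSF6B and ARFRP1, averaged 0.753 ± 0.21 CPM in DNMT1 knockdown, 0.777 ± 0.17 CPM in DNMT3B knockdown and 0.720 ± 0.17 CPM in Control and was called in no comparison.

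Among the receptors without a death domain, 8 of 12 passed the filter, and 5 were called in DNMT1 knockdown and 4 in DNMT3B knockdown. These shares, 62.5% and 50%, stand beside 41.8% and 47.7% of all tested genes. With 8 genes nothing particular to the class is read from them. TNFRSF18 (GITR, a costimulatory receptor known from T cells) had 13.1, 13.9 and 12.5 CPM in DNMT1 knockdown, 9.94, 10.0 and 9.84 CPM in DNMT3B knockdown, and 16.0, 14.4 and 16.2 CPM in Control. The DNMT3B knockdown libraries were the lowest and the 3 groups did not overlap. TNFRSF18 fell by 0.24 ± 0.07 on the log2 scale in DNMT1 knockdown (adjusted p = 0.0038) and by 0.65 ± 0.07 in DNMT3B knockdown, to 63.7% of Control (adjusted p = 5.6e-09). The knockdowns differed by 0.41 ± 0.08 log2 (adjusted p = 5.3e-05). TNFRSF4, the receptor gene 4.63 kb away, failed the filter with 24 counts in all.

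TNFRSF12A (Fn14, the receptor for TWEAK) had 82.1, 94.4 and 88.5 CPM in DNMT1 knockdown, 89.3, 89.0 and 89.9 CPM in DNMT3B knockdown, and 97.0, 99.5 and 108 CPM in Control. All knockdown libraries lay below Control. TNFRSF12A fell by 0.20 ± 0.04 on the log2 scale in DNMT1 knockdown (adjusted p = 0.00035) and by 0.18 ± 0.04 in DNMT3B knockdown (adjusted p = 0.00079). Between the knockdowns the log2 fold change was -0.02, with a 95% interval of -0.11 to 0.07. TNFRSF12A shares exon sequence with CLDN6 on the opposite strand. TNFRSF11A (RANK, the receptor for the osteoclast factor RANKL) averaged 5.79 ± 0.34 CPM in DNMT1 knockdown, 6.49 ± 0.30 CPM in DNMT3B knockdown and 7.05 ± 0.45 CPM in Control. It was called in DNMT1 knockdown at -0.28 ± 0.09 log2 (adjusted p = 0.016), a call that ended without Control replicate 2 or DNMT1 knockdown replicate 2 or 3 (0.0535 to 0.0570) and in DESeq2 (0.0650).

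The 3 other called receptors of this class were near the filter. TNFRSF1B (TNFR2, the TNF receptor known mainly from immune and endothelial cells) had 0.619, 0.341 and 0.166 CPM in DNMT1 knockdown, 0.491, 0.431 and 0.383 CPM in DNMT3B knockdown, and 0.0895, 0.186 and 0.160 CPM in Control. The DNMT3B knockdown libraries lay above Control, and 1 DNMT1 knockdown library lay within the Control range. TNFRSF1B rose by 1.38 ± 0.48 on the log2 scale in DNMT1 knockdown (adjusted p = 0.020) and by 1.58 ± 0.46 in DNMT3B knockdown (adjusted p = 0.0053). Without DNMT1 knockdown replicate 1, the change in DNMT1 knockdown was 0.80 (adjusted p = 0.263), and without Control replicate 1 (0.0961) and in DESeq2 (0.0695) that call was also lost. The 4 endothelial markers summed to 1.86 to 2.30 CPM in DNMT1 knockdown, 4.13 to 4.79 CPM in DNMT3B knockdown and 2.68 to 3.09 CPM in Control. Of the 3 that were tested, PECAM1 was called lower in DNMT1 knockdown (-0.94 log2, adjusted p = 0.0067) and VWF was called higher in DNMT3B knockdown (1.09 log2, adjusted p = 3.9e-06), and the others were not called in those comparisons. Their part in the TNFRSF1B value was not tested.

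TNFRSF17 (BCMA, a B-cell and plasma-cell receptor) had 0.784, 0.511 and 0.623 CPM in DNMT1 knockdown, 0.614, 0.915 and 0.421 CPM in DNMT3B knockdown, and 0.418, 0.372 and 0.289 CPM in Control. Both knockdowns lay above Control, DNMT3B knockdown narrowly so at its lowest library. TNFRSF17 was called in DNMT1 knockdown at 0.82 ± 0.33 log2 (adjusted p = 0.042) and missed the threshold in DNMT3B knockdown at 0.78 ± 0.33 (adjusted p = 0.052). The call in DNMT1 knockdown ended without Control replicate 2 or 3 or DNMT1 knockdown replicate 1 or 3 (0.0693 to 0.184) and in DESeq2 (0.136). The 3 B-cell markers summed to 0.623 to 0.784 CPM in DNMT1 knockdown, 0.808 to 1.07 CPM in DNMT3B knockdown and 0.537 to 1.12 CPM in Control, and MS4A1 had 5 counts over all 9 libraries. TNFRSF8 (CD30, known from activated lymphocytes) had 0.454, 0.384 and 0.623 CPM in DNMT1 knockdown, 0.818, 0.485 and 0.613 CPM in DNMT3B knockdown, and 0.239, 0.298 and 0.514 CPM in Control. DNMT3B knockdown overlapped Control by 1 library, and the call there, 0.89 ± 0.33 log2 (adjusted p = 0.028), ended without Control replicate 1 or 2 or DNMT3B knockdown replicate 1 or 3 (0.050 to 0.172) and in DESeq2 (0.110). TNFRSF13C (BAFF receptor) and TNFRSF19 averaged 7.0 to 7.78 CPM and 0.917 to 1.14 CPM over the groups and were called in no comparison.

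Of the 6 ligands that passed the filter, those with the largest fold changes were a neighbouring pair on chromosome 1, TNFSF18 and TNFSF4, whose genes lie 133 kb apart. Both reached the filter level in knockdown libraries and in no Control library, so they could enter the test only by being higher there. Their rank and their adjusted p-values against Control carry that condition. TNFSF18 (GITRL, the ligand of TNFRSF18) had 4, 7 and 5 counts in DNMT1 knockdown, 13, 8 and 26 counts in DNMT3B knockdown, and 0, 1 and 0 counts in Control. In CPM this was 0.165, 0.298 and 0.208 in DNMT1 knockdown, 0.532, 0.431 and 0.996 in DNMT3B knockdown and 0, 0.0372 and 0 in Control, with no overlap between the 3 groups. The ratio of summed counts, adjusted for depth, was 20.4 for DNMT1 knockdown over Control (exact 95% interval 3.17 to 856) and 62.2 for DNMT3B knockdown over Control (10.6 to 2510); these intervals cover counting error only and rest on 1 Control count. TNFSF18 was called in both knockdowns (adjusted p = 0.00091 in DNMT1 knockdown and 7.3e-08 in DNMT3B knockdown), with fitted log2 fold changes of 3.85 and 5.44 that depend on the small count added to Control. The level in DNMT1 knockdown was below that in DNMT3B knockdown, at -1.59 ± 0.41 log2 (adjusted p = 0.0018), and this call ended without DNMT3B knockdown replicate 3 (-1.11 log2, adjusted p = 0.0538).

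TNFSF4 (OX40L, the costimulatory ligand of TNFRSF4) had 0.537, 0.682 and 0.706 CPM in DNMT1 knockdown, 0.573, 0.539 and 0.728 CPM in DNMT3B knockdown, and 0.179, 0.372 and 0.289 CPM in Control. All 6 knockdown libraries lay above all Control libraries. TNFSF4 rose by 1.22 ± 0.33 on the log2 scale in DNMT1 knockdown (adjusted p = 0.0036) and by 1.17 ± 0.34 in DNMT3B knockdown (adjusted p = 0.0047). Between the knockdowns the log2 fold change was 0.04, with a 95% interval of -0.56 to 0.64. The 5 T and NK cell markers, 1 of them measurable, summed to 1.53 to 2.00 CPM in DNMT1 knockdown, 1.24 to 1.53 CPM in DNMT3B knockdown and 1.27 to 1.52 CPM in Control, with 1 count of CD3D over all libraries. Myeloid markers summed to 22.2 to 23.6 CPM in DNMT1 knockdown, 35.3 to 40.4 CPM in DNMT3B knockdown and 21.6 to 22.1 CPM in Control, with 4 of 5 measurable and CD68 the most abundant (18.0 CPM in DNMT1 knockdown, 32.9 CPM in DNMT3B knockdown and 17.7 CPM in Control). Of the 4 tested myeloid markers, 3 were called higher in DNMT3B knockdown, beside 23.1% of all tested genes, and none was called in DNMT1 knockdown. Their part in the ligand values was not tested.

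**Figure D4:**
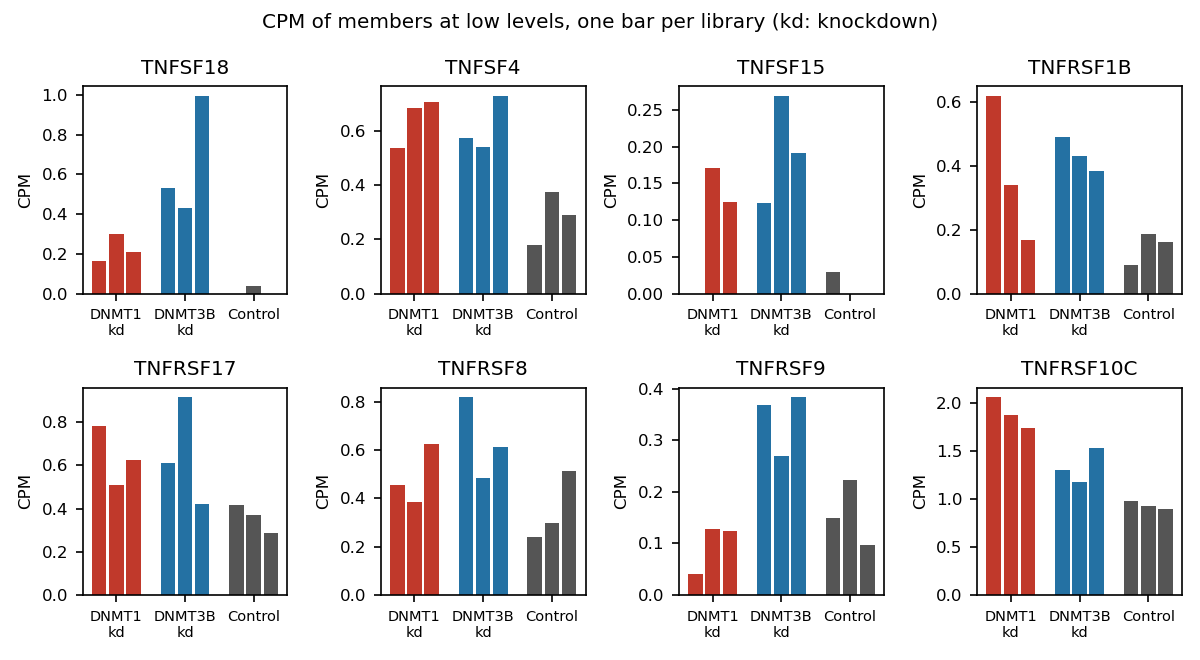
CPM of 8 members at low levels, with 1 bar per library; DNMT1 knockdown (red) stands left, DNMT3B knockdown (blue) in the middle and Control (grey) right, and a missing bar is a library with no count. TNFSF18 and TNFSF15 had almost no counts in Control, and TNFSF4 and TNFRSF10C were higher in all 6 knockdown libraries.

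TNFSF9 (4-1BBL), the most abundant ligand, had 26.0, 25.5 and 24.1 CPM in DNMT1 knockdown, 27.0, 31.8 and 27.8 CPM in DNMT3B knockdown, and 31.0, 29 and 31.5 CPM in Control. DNMT1 knockdown lay below the other groups, and DNMT3B knockdown overlapped Control. TNFSF9 fell by 0.28 ± 0.06 on the log2 scale in DNMT1 knockdown (adjusted p = 0.00019), against a log2 fold change of -0.09 ± 0.06 in DNMT3B knockdown (adjusted p = 0.19). The difference between the knockdowns, -0.19 ± 0.06 log2 (adjusted p = 0.010), ended without DNMT3B knockdown replicate 2 (-0.12 log2, adjusted p = 0.111). Its receptor TNFRSF9 (4-1BB) failed the filter, with 7 counts in DNMT1 knockdown, 24 in DNMT3B knockdown and 14 in Control; in the edgeR fit with no low-count filter it was called lower in DNMT1 knockdown than in DNMT3B knockdown (adjusted p = 0.012) and in neither knockdown against Control.

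TNFSF12 (TWEAK, the ligand of TNFRSF12A) had 6.44, 6.01 and 6.32 CPM in DNMT1 knockdown, 8.18, 7.81 and 7.47 CPM in DNMT3B knockdown, and 7.19, 6.74 and 7.83 CPM in Control. DNMT1 knockdown was below the other groups. Neither knockdown was called against Control (-0.22 ± 0.09 log2, adjusted p = 0.053 in DNMT1 knockdown, and 0.10 ± 0.09, adjusted p = 0.34 in DNMT3B knockdown). The knockdowns differed from each other by -0.32 ± 0.09 log2 (adjusted p = 0.0057). TNFSF13 (APRIL), whose gene starts 0.401 kb beyond that of TNFSF12, averaged 0.962 ± 0.11 CPM in DNMT1 knockdown, 0.856 ± 0.13 CPM in DNMT3B knockdown and 0.679 ± 0.12 CPM in Control, and TNFSF13B (BAFF) averaged 0.376 ± 0.19 CPM in DNMT1 knockdown, 0.388 ± 0.15 CPM in DNMT3B knockdown and 0.567 ± 0.11 CPM in Control. Neither was called in any comparison. Reads of TNFSF12 and TNFSF13 may be shared with the readthrough gene TNFSF12-TNFSF13.

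The 10 members that failed the filter had at most 45 counts over the 9 libraries. The receptors among them were TNFRSF9 (45 counts), TNFRSF4 (24), TNFRSF11B (15), TNFRSF14 (3) and TNFRSF13B (1), and the ligands were TNFSF10 (TRAIL, 30), TNFSF15 (21), TNFSF14 (5), TNFSF8 (1) and TNFSF11 (RANKL, 0). For a library with no count of a gene the upper limit, taken as 3 counts, was 0.0895 to 0.162 CPM. TRAIL, the ligand of the DR4 and DR5 receptors, was thus at 9 counts in DNMT1 knockdown, 11 in DNMT3B knockdown and 10 in Control. TNFSF15 (TL1A, the ligand of TNFRSF25), singled out after its values were seen, had 0, 4 and 3 counts in DNMT1 knockdown, 3, 5 and 5 in DNMT3B knockdown, and 1, 0 and 0 in Control. Its ratio of summed counts was 8.93 for DNMT1 knockdown over Control (exact 95% interval 1.15 to 402) and 17.2 for DNMT3B knockdown over Control (2.59 to 732), each resting on 1 Control count. In the edgeR fit with no low-count filter TNFSF15 was called higher in DNMT3B knockdown (adjusted p = 0.0022) and was not called in DNMT1 knockdown (adjusted p = 0.073).

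Genes of the family with older symbols and the machinery beneath the receptors are set beside the members, with lists that were chosen with earlier results of these data known. Their counts of called genes stand beside 41.8% of all tested genes called in DNMT1 knockdown (21% higher, 20.8% lower) and 47.7% in DNMT3B knockdown (23.1% higher, 24.6% lower), and nothing particular to a list is read from them. Of 15 family members with other symbols, 11 were tested; 4 were higher and 2 lower in DNMT1 knockdown, and 5 were higher and 2 lower in DNMT3B knockdown (54.5% and 63.6% called). EDA2R, a receptor for ectodysplasin A2, averaged 1.25 ± 0.13 CPM in DNMT1 knockdown, 0.432 ± 0.27 CPM in DNMT3B knockdown and 0.0654 ± 0.03 CPM in Control, with 6 Control counts in all. It passed the filter through knockdown libraries, so it could enter the test only by being higher there. It rose by 4.16 ± 0.42 on the log2 scale in DNMT1 knockdown (adjusted p = 1.1e-09) and by 2.69 ± 0.55 in DNMT3B knockdown (adjusted p = 0.00014). EDAR, the receptor for ectodysplasin A1, rose by 0.81 ± 0.11 in DNMT1 knockdown (adjusted p = 8.1e-07) and by 0.88 ± 0.11 in DNMT3B knockdown (adjusted p = 1.4e-07). CD70, the ligand of CD27, was called higher by 0.58 ± 0.20 in DNMT1 knockdown (adjusted p = 0.020), which ended without Control replicate 1 or 2 or DNMT1 knockdown replicate 2 (0.0576 to 0.108) and in DESeq2 (0.0730), and rose by 0.74 ± 0.20 in DNMT3B knockdown (adjusted p = 0.0023). NGFR, the low-affinity neurotrophin receptor, rose by 0.51 ± 0.10 in DNMT3B knockdown (adjusted p = 8.9e-05) and was not called in DNMT1 knockdown (0.22 ± 0.10, adjusted p = 0.097). FAS, the death receptor for FAS ligand, named after its values were seen, averaged 10.0 ± 0.39 CPM in DNMT1 knockdown, 16.0 ± 1.16 CPM in DNMT3B knockdown and 12.4 ± 0.61 CPM in Control. It fell by 0.31 ± 0.07 in DNMT1 knockdown (adjusted p = 0.0012) and rose by 0.36 ± 0.07 in DNMT3B knockdown (adjusted p = 6.3e-05). TNF itself had 3 counts and FASLG 15 counts over all 9 libraries.

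**Figure D5:**
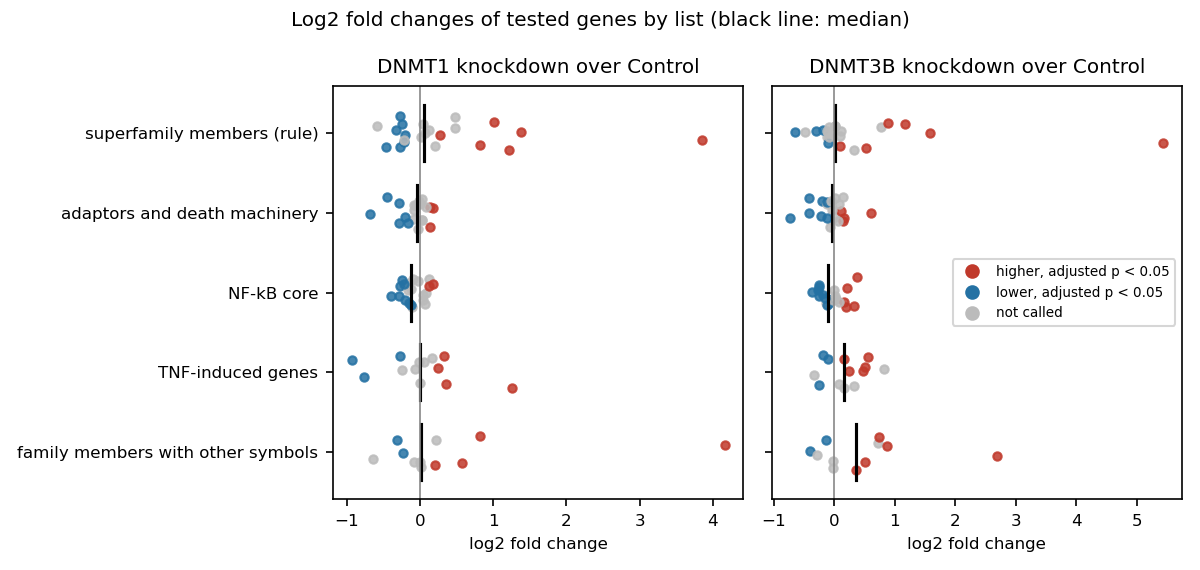
Log2 fold change of every tested gene of the superfamily and of 4 related lists, DNMT1 knockdown over Control on the left and DNMT3B knockdown over Control on the right; red points were higher and blue points lower at an adjusted p under 0.05 in edgeR, grey points were not called, and the black line is the list's median. Medians lie between -0.12 and 0.36.

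Of 21 adaptors and components of the death machinery, 20 were tested; 3 were higher and 6 lower in DNMT1 knockdown, and 4 were higher and 7 lower in DNMT3B knockdown, with a median log2 fold change of -0.04 in both. That is 45% called in DNMT1 knockdown and 55% in DNMT3B knockdown, against 41.8% and 47.7% of all tested genes. TRAF1, a signalling adaptor, fell by 0.68 ± 0.11 on the log2 scale in DNMT1 knockdown (adjusted p = 4.5e-06) and by 0.72 ± 0.11 in DNMT3B knockdown (adjusted p = 1.4e-06). TRAF2, the adaptor for TNFRSF1A and TNFRSF1B signalling, fell by 0.29 ± 0.05 in DNMT1 knockdown (adjusted p = 5.4e-06) and by 0.42 ± 0.05 in DNMT3B knockdown (adjusted p = 7.4e-09). CASP10, an initiator caspase, fell by 0.46 ± 0.12 in DNMT1 knockdown (adjusted p = 0.0029), against a log2 fold change of 0.15 ± 0.11 in DNMT3B knockdown (adjusted p = 0.26). BIRC3, an inhibitor of apoptosis that NF-kB induces, averaged 4.86 ± 0.76 CPM in DNMT1 knockdown, 9.0 ± 1.04 CPM in DNMT3B knockdown and 5.93 ± 0.21 CPM in Control. It rose by 0.61 ± 0.10 in DNMT3B knockdown (adjusted p = 4.7e-06) and was called lower by 0.29 ± 0.11 in DNMT1 knockdown (adjusted p = 0.036), a call that ended without Control replicate 1 or DNMT1 knockdown replicate 2 or 3 (0.0822 to 0.211) and in DESeq2 (0.0847). RIPK3, the kinase of necroptosis, had 1 count over all libraries.

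All 21 genes of the NF-kB core were tested; 2 were higher and 8 lower in DNMT1 knockdown (median log2 fold change -0.12), and 5 were higher and 10 lower in DNMT3B knockdown (median -0.10). That is 47.6% called in DNMT1 knockdown and 71.4% in DNMT3B knockdown, against 41.8% and 47.7% of all tested genes. TNFAIP3 (A20, a deubiquitinase that limits TNF signalling) fell by 0.40 ± 0.10 in DNMT1 knockdown (adjusted p = 0.0012) and rose by 0.38 ± 0.09 in DNMT3B knockdown (adjusted p = 0.00059). REL rose by 0.32 ± 0.05 in DNMT3B knockdown (adjusted p = 6.4e-06) and was not called in DNMT1 knockdown (0.12 ± 0.05, adjusted p = 0.060). TAB1, a subunit of the TAK1 kinase complex, fell by 0.37 ± 0.05 in DNMT3B knockdown (adjusted p = 1.8e-07). In DNMT1 knockdown TAB1 was called higher by 0.12 ± 0.05 (adjusted p = 0.034), which ended without any 1 of the 3 DNMT1 knockdown libraries or Control replicate 2 or 3 (0.0595 to 0.222; 0.08 log2 without Control replicate 3), in DESeq2 and with no low-count filter. IKBKG (NEMO) was called lower in DNMT1 knockdown at -0.28 ± 0.10 (adjusted p = 0.022) and in DNMT3B knockdown at -0.24 ± 0.10 (adjusted p = 0.047). The IKBKG call in DNMT1 knockdown ended without Control replicate 1 or 3 or DNMT1 knockdown replicate 3 (0.0749 to 0.140) and in DESeq2 (0.0834). The call in DNMT3B knockdown ended without Control replicate 1 or 3 or DNMT3B knockdown replicate 2 or 3 (0.107 to 0.158) and under 5 other alternatives (up to 0.147).

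Of 15 genes that TNF is known to induce, 13 were tested; 4 were higher and 3 lower in DNMT1 knockdown (median log2 fold change 0.00), and 5 were higher and 3 lower in DNMT3B knockdown (median 0.16). The shares called were 53.8% in DNMT1 knockdown and 61.5% in DNMT3B knockdown, beside 41.8% and 47.7% of all tested genes. CXCL8, the neutrophil chemokine, fell by 0.93 ± 0.22 on the log2 scale in DNMT1 knockdown (adjusted p = 0.00078), against -0.34 ± 0.20 in DNMT3B knockdown (adjusted p = 0.16). PTGS2 (COX-2) fell by 0.77 ± 0.18 in DNMT1 knockdown (adjusted p = 0.00076), against 0.07 ± 0.16 in DNMT3B knockdown (adjusted p = 0.73). MMP9, a matrix protease, was called higher by 1.26 ± 0.39 in DNMT1 knockdown (adjusted p = 0.0097), which ended without Control replicate 1 or DNMT1 knockdown replicate 1 or 3 (0.0512 to 0.0623) and in DESeq2 (0.0516). MMP9 was at a low level: it did not reach 1 CPM in 3 libraries and had no value under that alternative filter. CXCL2 was called higher by 0.57 ± 0.19 in DNMT3B knockdown (adjusted p = 0.015), which ended without Control replicate 1 or 3 or DNMT3B knockdown replicate 3 (0.0530 to 0.0782) and in DESeq2 (0.0862).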

How the data were processed

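RNA of 9 libraries (3 DNMT1 knockdown, 3 DNMT3B knockdown, 3 Control) was analysed from unscaled counts, which the authors deposited as 1 table with a row per gene symbol. The tools named in the submitters' processing notes are STAR, featureCounts and DESeq2, and the build is GRCh38 (hg38); versions, settings, annotation and strand use were not given in the sources used here. All columns were matched to samples (0 were left over), and groups were taken from the labels. Counts of the 16660 genes that passed filterByExpr by group were scaled by TMM and fitted in R 4.3.3 with edgeR 4.0.16 (quasi-likelihood, all 9 libraries, group as the only term, 6 residual degrees of freedom), with Benjamini-Hochberg adjustment over all tested genes; every adjusted p is from this test unless another tool is named. Alternatives were DESeq2 1.42.0, limma-voom (limma 3.58.1), DESeq2 size factors, no TMM, no filter, at least 1 CPM in 3 libraries, only the 2 groups compared, a replicate block, and leaving out each library. The steps were tested on simulated counts with a common spread for all genes, kept to genes above 0.5 CPM in the reference group. That test recovered 64 to 82% of 1.25-fold changes and does not cover members below that level. Depth was 18.8 to 33.7 M counts; exact intervals of count ratios cover counting error only. Members and lists were chosen with earlier results of these data known. The text describes every member that passed the filter, with values per library for those called with an absolute log2 fold change of at least 0.5 and for other members the results turn on, and up to 4 called genes of each related list with the largest change. Exon lengths and positions are from GENCODE 29 (GRCh38), in which all 32 members were found. Promoters are RefSeq's (GRCh38.p14), given for 21 members. The direct comparison sets DNMT1 knockdown over DNMT3B knockdown.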

Additional observations from a re-analysis of the deposited data

Results flagged for a closer look

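FAS, BIRC3, TNFAIP3, TAB1 and TNFAIP8 stood out because the knockdowns were called in opposite directions against Control and differed from each other in the direct test. The log2 fold change of DNMT1 knockdown over DNMT3B knockdown was -0.67 ± 0.08 for FAS (adjusted p = 8.9e-09 in edgeR), -0.90 ± 0.11 for BIRC3 (adjusted p = 2.9e-08) and -0.77 ± 0.10 for TNFAIP3 (adjusted p = 6.7e-08). These 3 genes were lower in DNMT1 knockdown and higher in DNMT3B knockdown than in Control. For TAB1 it was 0.49 ± 0.05 (adjusted p = 1.0e-09) and for TNFAIP8, a TNF-induced gene named after its values were seen, 0.43 ± 0.07 (adjusted p = 4.3e-06); both were higher in DNMT1 knockdown and lower in DNMT3B knockdown than in Control. TNFAIP8 averaged 15.5 ± 0.45 CPM in DNMT1 knockdown, 11.4 ± 0.30 CPM in DNMT3B knockdown and 13.0 ± 0.22 CPM in Control. Its call in DNMT3B knockdown, -0.18 ± 0.07 (adjusted p = 0.027), ended without Control replicate 1 or 3 or DNMT3B knockdown replicate 1 or 2 (0.0601 to 0.0811) and in DESeq2 (0.0980). The weaker of the opposed calls for BIRC3 and TAB1 also depended on single libraries, as given with those genes.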

How the results depend on the processing

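Leaving out each library in turn gave 11 to 13 called members in DNMT1 knockdown, 8 to 10 in DNMT3B knockdown and 9 to 11 between the knockdowns, and 5812 to 7120, 7013 to 8011 and 6638 to 7558 called genes over the whole table. DESeq2 called 10, 7 and 10 members. At least 1 CPM in 3 libraries left 14 members to test and 9, 6 and 10 calls; the fall to 6 in DNMT3B knockdown follows from the smaller set tested, since all 6 are among the 10. Same-numbered libraries of different groups correlated at -0.309 to 0.367, and different-numbered ones at -0.411 to 0.367. Of 9 libraries, 2 correlated best with their own number. The numbers thus gave no sign of pairing. Picked after the values were seen, Control replicate 1, DNMT1 knockdown replicate 1 and DNMT3B knockdown replicate 2 correlated with each other at 0.206 to 0.367. Control replicate 2, DNMT1 knockdown replicate 3 and DNMT3B knockdown replicate 1 did so at 0.246 to 0.356. The libraries left over correlated at -0.0456 to 0.367. Whether libraries pair across groups under other numbers was not tested, and the fit reported has no term for it. With the replicate number as a block, 13, 11 and 11 members and 6796, 7789 and 7379 genes were called. Other scalings moved the median of all genes by at most 0.01 log2. Of 1098 member values under alternatives, 23 changed sign, none of them called in the fit reported. Leaving out 1 library gave these log2 ranges. In DNMT1 knockdown they were -0.18 to 0.23 for TNFRSF6B and -0.0070 to 0.16 for TNFRSF13C. In DNMT3B knockdown they were -0.012 to 0.041 for TNFRSF10D (-0.00067 with no low-count filter), -0.0074 to 0.043 for TNFRSF10B, -0.29 to 0.080 for TNFRSF19, -0.045 to 0.25 for TNFRSF6B, -0.15 to 0.016 for TNFRSF13C and -0.086 to 0.19 for PTGS2. Between the knockdowns they were -0.074 to 0.027 for TNFRSF12A, -0.21 to 0.31 for TNFRSF17, -0.30 to 0.11 for TNFRSF6B, -0.040 to 0.20 for TNFSF4, -0.78 to 0.14 for TNFRSF1B, -0.46 to 0.24 for TNFSF13B, -0.045 to 0.10 for TRAF1 and -0.10 to 0.030 for IKBKG. The cause was not tested. Members near 0.412 CPM rest on few counts, and a fold change there is known only within the wide intervals given.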
